A study of Caenorhabditis elegans with 9 samples.

Results

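The genes of the mitochondrial genome of Caenorhabditis elegans were followed through 9 libraries of RNA recovered by anti-GFP immunoprecipitation from dauer larvae, the arrested larval stage. They were taken as all rows that the deposited tables place on the mitochondrial chromosome, which gave 36 of 46904 genes: 12 that code for proteins, 2 for ribosomal RNA (rRNA) and 22 for transfer RNA (tRNA). The study asks which transcripts are recovered with HZL-1 and whether this differs when AMP-activated protein kinase (AMPK), an energy sensor, is missing. Animals of every group carried daf-2, a mutation in the insulin/IGF receptor gene, were grown at 25 °C and were collected at 96 hours. Animals labelled aak(0) were in addition mutant for both genes of catalytic AMPK subunits, aak-1 and aak-2. In the HZL-1 groups the hzl-1 gene was mutant as well, and a tagged hzl-1::GFP copy was carried on an extrachromosomal array. Under the promoter of nhx-2, which is used to drive expression in the intestine, there were 3 HZL-1 libraries in aak(0) and 3 in daf-2. GFP alone under this promoter gave 1 library, which was labelled aak(0) and names no hzl-1 mutation. Under the promoter of hzl-1 itself there was 1 HZL-1 library in aak(0) and 1 in daf-2. Whole hermaphrodites on day 2 of dauer were fixed with formaldehyde before precipitation, no input RNA was analysed here, and a level therefore holds both how much of a transcript the animals had and how well it was recovered. In such bulk samples fewer cells of a type and less RNA per cell cannot be told apart.

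Mitochondria keep a small circular genome of their own. In this nematode it encodes subunits of the respiratory chain and of the ATP synthase, together with the rRNAs and tRNAs needed to translate them inside the organelle, and all other mitochondrial proteins come from nuclear genes. NADH dehydrogenase (complex I), the cytochrome bc1 complex (complex III), cytochrome c oxidase (complex IV) and the ATP synthase (complex V) each hold subunits of both origins, whereas complex II is wholly nuclear.

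The libraries differed in ways that bear on every value below. Gene reads ranged from 7151604 to 16749641 in the intestinal aak(0) libraries and from 11723516 to 17397251 in daf-2, and they were 24035823 and 58132094 in the endogenous libraries labelled aak(0) and daf-2. No reads could be derived for GFP, so its depth is unknown. In aak(0) replicates 1, 2 and 3, 3439, 13967 and 18666 genes had an FPKM (fragments per kilobase of transcript, scaled to the library) above 0, against 5135, 11510 and 6076 in daf-2, while the GFP library had 16317. Some libraries did not match their labels in the targeted genes, although reads over a whole gene can lie outside a deleted stretch. The GFP library labelled aak(0) listed aak-2 at 8.32 FPKM, against 0, 2.11 and 3.36 in the HZL-1 aak(0) libraries and 6.13, 5.31 and 7.90 in daf-2. The library listed at 0, aak(0) replicate 1, nevertheless held 153 reads of aak-2, or 0.00214% of its gene reads, which lies among the 0.00218%, 0.00178% and 0.00383% of daf-2 and above the 0.000712% and 0.00142% of aak(0) replicates 2 and 3. Reads of aak-2 thus do not set this library apart from daf-2. Reads of aak-1 were 0 in it and 0 in daf-2 replicate 1. The GFP library also listed argk-1, an arginine kinase gene, at 1.00 FPKM, where the HZL-1 aak(0) libraries had 905 to 3601 FPKM. The endogenous library labelled aak(0) held 92248 reads of aak-2, and the one labelled daf-2 held 3937 reads. Reads of hzl-1 itself numbered 11527 in the endogenous library labelled aak(0) and 0 in the one labelled daf-2. Genotype names of the GFP library and of both endogenous libraries are used below as labels, and aak(0) replicate 1 is kept under its label, with fits that leave it out.

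With intestinal HZL-1, messenger RNAs of the mitochondrial genome were listed higher in aak(0) than in daf-2 immunoprecipitates, while levels of the mitochondrial rRNAs overlapped. For 11 of the 12 protein-coding genes every aak(0) library lay above every daf-2 library, from the abundant ctb-1, ctc-1 and ctc-3 to the rare nduo-2, and 10.02% of the 9649 tested genes showed such a separation in that direction. The libraries varied strongly, and no single mitochondrial gene passed the threshold of an adjusted p of 0.05 in limma. The values of each gene follow, by respiratory complex, with coordinates of the deposited tables (build WBcel235) and libraries in the order of replicates 1, 2 and 3.

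Of the complex I subunits, nduo-1 (873 nt, MtDNA:1763-2635), which encodes the membrane subunit at the joint with the peripheral arm, was listed at 202, 332 and 311 FPKM in aak(0), against 85.4, 177 and 34.1 FPKM in daf-2. The groups did not overlap, and the lowest aak(0) library stood close above the highest daf-2 library. The gene nduo-5 (1582 nt, MtDNA:11691-13272), for a large antiporter-like membrane subunit, had 170.2, 341 and 297 FPKM in aak(0), against 18.02, 43.5 and 12.9 FPKM in daf-2. Even its lowest aak(0) library exceeded each daf-2 library by a wide margin. The gene nduo-4 (1303 nt, MtDNA:6506-7808), for another antiporter-like subunit, had 115, 138 and 134 FPKM in aak(0), against 77.5, 41.5 and 37.15 FPKM in daf-2. These were the closest values between replicates of aak(0) among the 12 genes, with a mean of 129 ± 11.9 FPKM against 52.1 ± 22.1 FPKM in daf-2 (SD, n = 3 each). The gene nduo-6 (437 nt, MtDNA:113-549), for a smaller membrane subunit, had 288, 211 and 202 FPKM in aak(0), against 57.8, 107 and 2.37 FPKM in daf-2, so that daf-2 replicate 3 stood far below its group.

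The other complex I genes were low or unevenly measured. The gene ndfl-4 (235 nt, MtDNA:549-783), for the short ND4L subunit, had 153, 25.5 and 18.35 FPKM in aak(0), against 0, 16.2 and 0 FPKM in daf-2. Its first aak(0) library exceeded the others, although the reads recovered there numbered 550, close to the 559 of replicate 2. FPKM divided by CPM per kilobase (CPM being reads scaled to the total of gene reads) was 0.467 in replicate 1 and 0.170 in replicate 2 for this short gene, so the gap between these libraries depends on the scale. In CPM per kilobase ndfl-4 stood at 327, 149.8 and 70.6 in aak(0), in the same order as its FPKM, against 10.54, 23.7 and 0 in daf-2. The gene nduo-2 (881 nt, MtDNA:3389-4269), for a further antiporter-like subunit, had the lowest means, with 1.80, 3.40 and 6.51 FPKM in aak(0), against 0.12, 0.86 and 0 FPKM in daf-2. These values rested on 16, 86 and 143 reads in aak(0) and on 15, 23 and 3 reads in daf-2. The gene nduo-3 (336 nt, MtDNA:11356-11691), for a small membrane subunit, was listed at 0, 35.9 and 35.3 FPKM in aak(0), against 0, 13.9 and 23.8 FPKM in daf-2. Here the groups overlapped. Both libraries listed at 0 held reads of nduo-3, 34 in aak(0) and 23 in daf-2, so these zeros are no measure of absence. The same held for ndfl-4 in daf-2 replicate 1, with 32 reads, and for nduo-2 in daf-2 replicate 3, with 3 reads. The ends of nduo-6 and ndfl-4, of nduo-1 and atp-6, and of nduo-3 and nduo-5 coincide or overlap. Some tRNA genes overlap protein-coding genes too, such as MTCE.15 (MtDNA:3362-3416) and nduo-2. Reads at these ends may be shared, and neither labels nor notes say whether the counting used strand.

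The highest means in both genotypes were those of ctb-1 of complex III and of ctc-1 and ctc-3 of complex IV. The gene ctb-1 (1118 nt, MtDNA:4504-5621), which encodes cytochrome b, the catalytic membrane subunit of complex III, had 948, 1399 and 1162 FPKM in aak(0), against 161, 308 and 111 FPKM in daf-2. Its mean was 1169 ± 225 FPKM in aak(0) and 193 ± 103 FPKM in daf-2 (SD, n = 3 each), a gap larger than either spread. For complex IV, ctc-1 (1602 nt, MtDNA:7827-9428), the subunit that holds the oxygen-reducing centre, had 693, 1098 and 1018 FPKM in aak(0), against 172, 267 and 80.7 FPKM in daf-2. The gene ctc-2 (700 nt, MtDNA:9649-10348), for the subunit that receives electrons from cytochrome c, had 95.4, 369.9 and 299 FPKM in aak(0), against 48.3, 45.45 and 13.6 FPKM in daf-2. Its aak(0) replicate 1 lay well below the other aak(0) libraries and still above daf-2. The gene ctc-3 (772 nt, MtDNA:5678-6449), for the third core subunit, had 1139, 2549.8 and 2115 FPKM in aak(0), against 63.8, 737 and 98.9 FPKM in daf-2. In daf-2 its 3 libraries spread over a wider range than those of ctc-1 or ctb-1, with replicate 2 on top. For the ATP synthase, atp-6 (602 nt, MtDNA:2634-3235), a subunit of the proton channel, had 189, 327 and 275 FPKM in aak(0), against 36.8, 55.3 and 19.4 FPKM in daf-2, with no overlap.

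**Figure D1:**
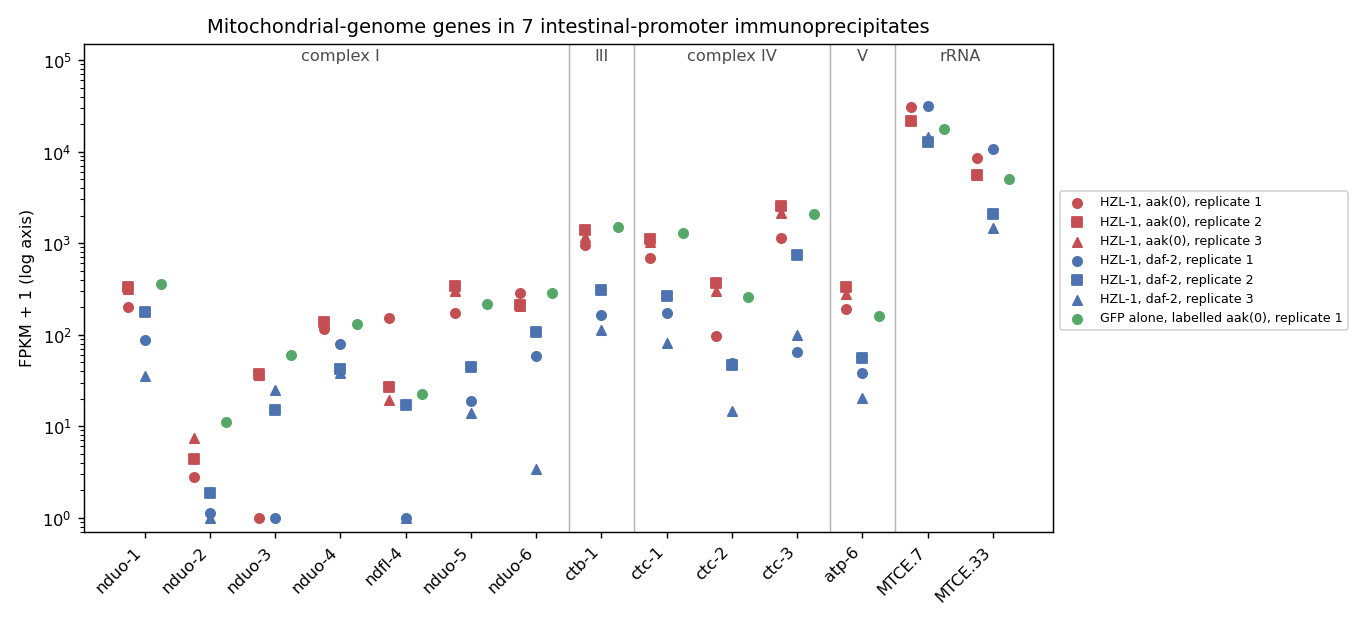
FPKM plus 1 (log axis) of the 12 protein-coding genes, grouped by respiratory complex, and of both rRNA genes of the mitochondrial genome in each intestinal-promoter library, with aak(0) left, daf-2 in the middle and GFP right. All aak(0) points lie above all daf-2 points for 11 protein-coding genes, the exception being nduo-3, while the rRNA genes overlap.

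The differences were tested with limma on log2(FPKM + 1) over the 7 intestinal libraries, in 1 fit across 9649 genes with Benjamini-Hochberg adjustment, and a difference on this scale understates the change of low genes. Nothing in the labels says whether replicates came from separate cultures, so the p-values reflect variation among these libraries alone, possibly technical. The log2 difference, aak(0) minus daf-2, was above 0 for 12 of 12 protein-coding genes, against 70.3% of all tested genes. Its median was 2.74 over these 12, while over all tested genes the median was 0.59. The highest values were 4.05 ± 1.39 for ndfl-4, 3.51 ± 0.60 for nduo-5, 3.44 ± 0.98 for ctc-3 and 3.06 ± 1.28 for nduo-6 (± SE). Those of atp-6, ctc-2, ctb-1 and ctc-1 were 2.88 ± 0.53, 2.77 ± 0.75, 2.703 ± 0.530 and 2.56 ± 0.57. Lower values were found for nduo-2 (1.82 ± 0.73), nduo-1 (1.76 ± 0.67), nduo-4 (1.37 ± 0.46) and nduo-3 (0.62 ± 1.84). Most of these differ from their neighbours in this order by less than their standard errors.

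No protein-coding member passed the adjusted threshold in limma, with an adjusted p of 0.717 for 11 genes and 0.938 for nduo-3, and of all tested genes 0.0104% passed. At an unadjusted limma p under 0.05, 10 of the 12 genes were higher in aak(0), against 4.09% of all tested genes. The smallest unadjusted limma p-values were 0.000839 for nduo-5, 0.00136 for atp-6 and 0.00184 for ctb-1. The quasi-likelihood test of edgeR on recovered reads called 0 of the 12 genes at an adjusted p of 0.05 and 0.0214% of all genes tested, with 7 of the 12 higher at an unadjusted p under 0.05, against 0.525% of all genes. DESeq2 on the same reads called 0 of the 12 at an adjusted p of 0.05, against 5 of 24419 genes fitted. It had 0 of the 12 at an unadjusted p under 0.05, against 2.85% of all genes fitted that were higher in aak(0). With ribosomal RNA left out of the library sizes, edgeR called nduo-5 (adjusted p = 0.0427), and 0.0318% of all genes were called higher in aak(0). With no filter on low counts, edgeR called nduo-5, ctb-1, ctc-1 and ctc-3 (adjusted p from 2.38e-05 to 0.0003), against 0.0287% of all genes. Without aak(0) replicate 1, limma called nduo-5 (adjusted p = 0.0466), when 5.65% of all genes were called higher in aak(0). The limma difference of nduo-3 lay below 0 without aak(0) replicate 2 (-0.25), without aak(0) replicate 3 (-0.24) and without daf-2 replicate 1 (-0.80).

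**Figure D2:**
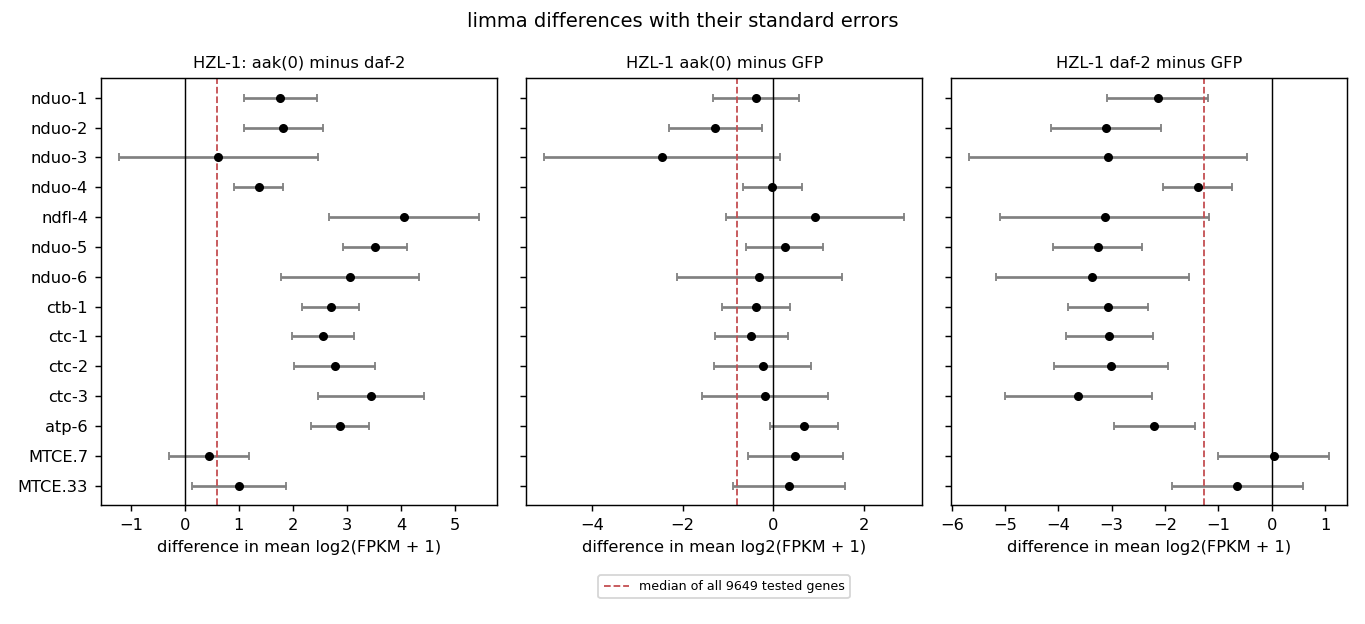
limma differences in mean log2(FPKM + 1) with their standard errors for the 14 mitochondrial genes with values, for aak(0) minus daf-2, HZL-1 aak(0) minus GFP and HZL-1 daf-2 minus GFP. The dashed line is the median of all tested genes (0.59, -0.79 and -1.28): the protein-coding genes lie right of it in the first panel and left of it in the third, while MTCE.7 (0.44) lies left of it in the first panel and MTCE.33 (1.00) right of it.

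Markers of other tissues moved between these libraries as well. The summed FPKM of 7 germline markers was 60.8, 181 and 183 in aak(0), against 133, 20.4 and 13.7 in daf-2, while the GFP library had 271, and 2, 0 and 0 of them were at 0 in aak(0), against 0, 0 and 1 in daf-2. The sum over 5 body wall muscle markers was 251, 52.9 and 53.2 in aak(0), against 34.7, 101 and 247 in daf-2, with none at 0. The sum over 9 intestine markers, the tissue of the promoter, was 33.9, 31.1 and 30.9 in aak(0), against 31.9, 25.0 and 42.9 in daf-2. Of these, 6, 1 and 0 were at 0 in aak(0) and 5, 2 and 5 in daf-2, and mtl-2, a metallothionein gene, was at 0 in every daf-2 library. The sum over 5 hypodermis markers was 17.1, 27.8 and 29.4 in aak(0), against 26.4, 2.03 and 5.89 in daf-2. Of these markers, 4, 2 and 0 were at 0 in aak(0), against 3, 4 and 4 in daf-2. Those at 0 in every daf-2 library were dpy-5, dpy-7 and sqt-1, all cuticle genes, and none was at 0 in every aak(0) library. Over 4 pharynx markers the sums ran from 19.6 to 59.1 in aak(0) and from 13.8 to 44.02 in daf-2, and over 6 neuron markers from 33.7 to 106 in aak(0) and from 32.3 to 103 in daf-2. The ranges of all 6 sums overlap between the genotypes, with germline sums in aak(0) replicates 2 and 3 above those of every daf-2 library, and the part of tissue make-up in the mitochondrial differences was not tested.

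Among all protein-coding genes, the more abundant mitochondrial ones stood near the top in most libraries, while nduo-2 ranked from 2384 to 6631 and nduo-3 at best 208. The 12 genes together made up 5.33%, 7.92% and 6.84% of the FPKM of all protein-coding genes in aak(0), against 1.57%, 4.21% and 0.659% in daf-2, while the GFP library had 6.07%. Of the 50 most abundant protein-coding genes, 7, 8 and 8 were mitochondrial in aak(0), against 4, 5 and 0 in daf-2, while the GFP library had 8. In aak(0) replicates 2 and 3, in daf-2 replicate 2 and in the GFP library ctc-3, ctb-1 and ctc-1 held 3 of the first 4 ranks. In daf-2 replicate 3 the best placed of them, ctb-1, ranked 102, ahead of ctc-3 at 117 and ctc-1 at 141. In daf-2 replicate 2 ctc-3 held rank 1, so the daf-2 libraries did not share one position for these genes.

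The rRNAs of the mitochondrial ribosome did not follow the messages. MTCE.7 (696 nt, MtDNA:898-1593) was listed at 30681, 21564 and 21943 FPKM in aak(0), against 31802, 12601 and 14442 FPKM in daf-2. MTCE.33 (952 nt, MtDNA:10403-11354) was listed at 8460.2, 5568 and 5500.4 FPKM in aak(0), against 10685, 2081 and 1460 FPKM in daf-2. For both genes daf-2 replicate 1 exceeded every aak(0) library and daf-2 replicates 2 and 3 lay below all of them, so the groups overlapped. The limma difference, aak(0) minus daf-2, was 0.44 ± 0.74 for MTCE.7 (adjusted p = 0.873) and 1.00 ± 0.87 for MTCE.33 (adjusted p = 0.725). Its sign turned for MTCE.7 with median-of-ratios scaling (-0.28) and in edgeR on recovered reads (-0.13), and for MTCE.33 in DESeq2 on recovered reads (-0.16). The ratio of MTCE.7 to MTCE.33 reads was 2.55, 2.69 and 2.76 in aak(0), against 2.12, 4.28 and 6.90 in daf-2, so that aak(0) libraries were alike and daf-2 libraries were not. Across the 7 libraries the Pearson r of a gene's log2(FPKM + 1) with the mean of the other protein-coding members was 0.76 to 0.99 for 11 protein-coding genes, 0.28 for nduo-3, 0.11 for MTCE.7 and 0.36 for MTCE.33, as a description of libraries that share their normalization.

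The 22 tRNA genes, 52 to 62 nt long, were hardly measured. All were listed at 0 FPKM in the 7 intestinal libraries, and 5 reads in all were found over the 8 HZL-1 libraries with counts: 3 of MTCE.20 in aak(0) replicate 3 and 2 of MTCE.13 in daf-2 replicate 3. A count of 0 allows up to 3 reads, or 0.172 to 0.419 CPM with intestinal HZL-1. Of 612 nuclear tRNA genes in the same tables, 270 had at least 1 read and 99 an FPKM above 0. Nothing can be said of mitochondrial tRNA levels from these libraries.

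Counted in reads, the 12 protein-coding genes took 0.562%, 1.011% and 0.862% of gene reads in intestinal aak(0) libraries, against 0.118%, 0.234% and 0.0976% in daf-2 (the widest exact 95% binomial interval, that of aak(0) replicate 1, was 0.557% to 0.568% and covers counting error only). The ratio of the group means was 5.42. Both rRNA genes took 3.65%, 2.74% and 2.74% in aak(0), against 4.51%, 1.38% and 2.296% in daf-2. All 36 genes together took 4.21%, 3.75% and 3.60% in aak(0), against 4.63%, 1.61% and 2.39% in daf-2, a total that is set by the rRNAs. Cytosolic rRNA filled 76.1% to 76.9% of gene reads in aak(0) and 74.0% to 88.4% in daf-2. Without it, the protein-coding genes took 2.43%, 4.31% and 3.61% in aak(0), against 0.637%, 2.02% and 0.375% in daf-2, still with no overlap.

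Set against the rRNA of the same organelle, the messages gave, per 100 mitochondrial rRNA reads, 15.4, 36.9 and 31.4 in aak(0), against 2.62, 17.0 and 4.25 in daf-2. Here daf-2 replicate 2 lay above aak(0) replicate 1, so this ratio, which does not use the total of the library, overlapped between the genotypes. The libraries were poly(A)-selected per the labels' protocols, and how far rRNA levels and this ratio depend on that selection was not tested. Both endogenous libraries lay among the intestinal ones, at 16.8 in the library labelled aak(0) and 18.8 in the one labelled daf-2.

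**Figure D3:**
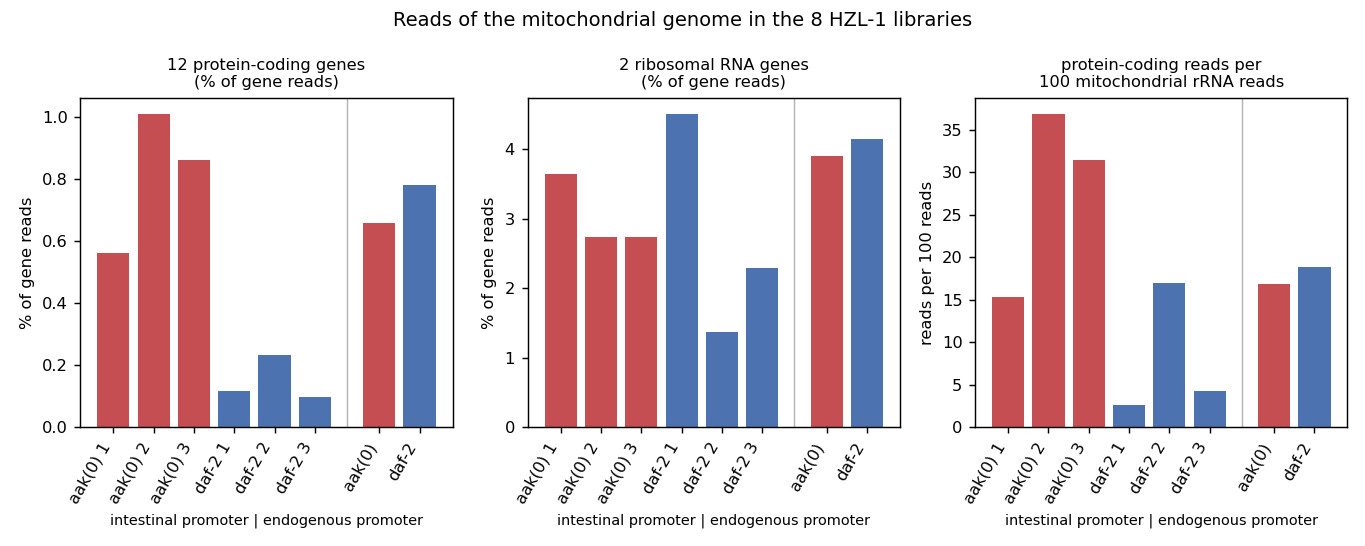
Share of gene reads from the 12 protein-coding genes and from the 2 rRNA genes of the mitochondrial genome, and protein-coding reads per 100 mitochondrial rRNA reads, 1 bar per HZL-1 library, without error bars. The protein-coding share separates the intestinal genotypes (0.562% to 1.011% in aak(0), 0.0976% to 0.234% in daf-2), the rRNA share does not.

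The make-up of the mitochondrial messages was similar in most libraries. Reads of ctc-1 made up 25.1% to 34.6% of the reads of the 12 genes in intestinal libraries and 37.0% and 37.6% in the endogenous libraries labelled aak(0) and daf-2, and ctb-1 gave 16.1% to 26.4%. The rank order of the 12 genes by FPKM correlated between pairs of intestinal libraries with a Spearman rho of 0.58 to 0.98 (median 0.80, 21 pairs), and genes are not independent replicates. The share of nduo-5 was 8.31%, 9.41% and 8.49% in aak(0), against 4.58%, 4.41% and 4.76% in daf-2, with no overlap. That of nduo-1 was 4.99%, 4.30% and 4.67% in aak(0), against 9.10%, 9.04% and 6.61% in daf-2, also with no overlap but in the other direction. These 2 genes were singled out after their values were seen, and the shares of 1 library sum to a fixed total. The share of ctc-3 was lowest in daf-2 replicate 1 (6.08%) and highest in daf-2 replicate 2 (31.6%). In daf-2 replicates 1 and 3, nduo-4 reached 12.52% and 11.9%, and it stayed between 2.53% and 4.07% in the other intestinal libraries.

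**Figure D4:**
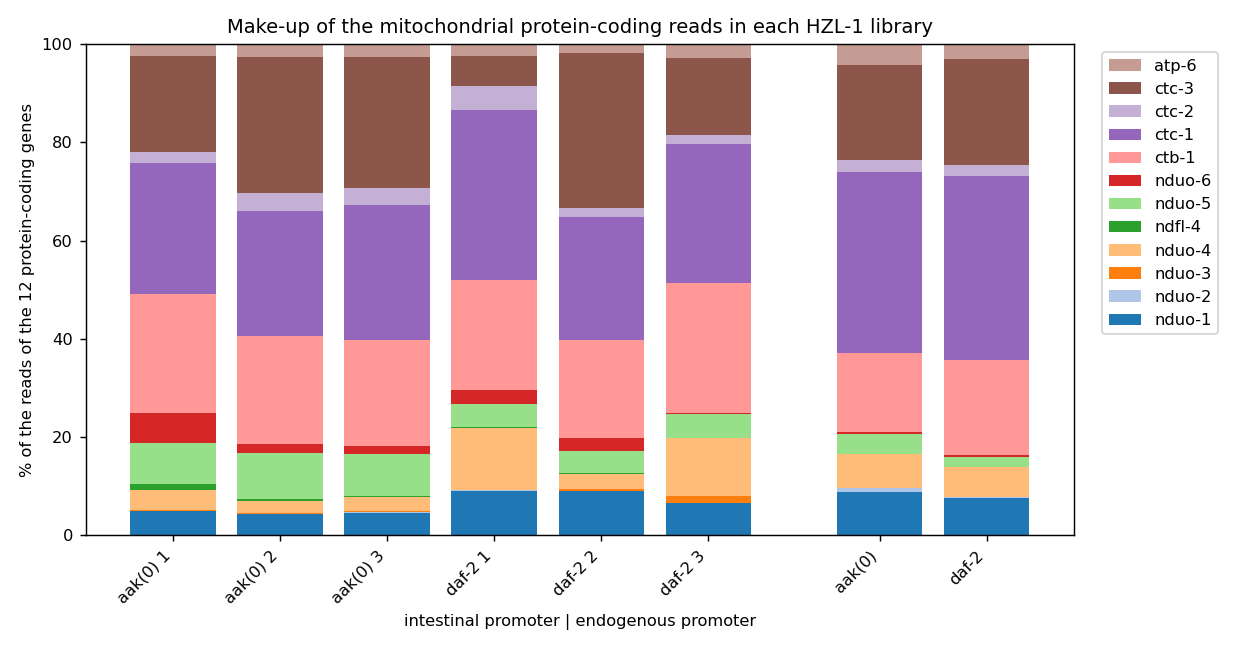
Percent of the reads of the 12 mitochondrial protein-coding genes that each gene took in the 8 HZL-1 libraries, stacked from complex I (bottom) to atp-6 (top). The band of nduo-5 is wider in intestinal aak(0) (8.31% to 9.41%) than in daf-2 (4.41% to 4.76%), and ctc-3 ranges from 6.08% to 31.6% within daf-2.

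The GFP library shows what an immunoprecipitate of GFP alone held. It listed ctb-1 at 1494 FPKM, ctc-3 at 2075, ctc-1 at 1284, nduo-1 at 358, nduo-6 at 285, ctc-2 at 258, nduo-5 at 218, atp-6 at 160.5 and nduo-4 at 130.4. The low genes nduo-3, ndfl-4 and nduo-2 were at 59.2, 21.7 and 9.98 FPKM, and MTCE.7 and MTCE.33 at 17493 and 4983 FPKM. The levels with GFP alone were within the range of the HZL-1 aak(0) libraries for nduo-6, ndfl-4, ctc-3, nduo-4, ctc-2 and nduo-5 and above all of them for nduo-1, nduo-2, nduo-3, ctb-1 and ctc-1. For 1 of the 12 genes, atp-6, every HZL-1 aak(0) library exceeded GFP, as did MTCE.7 and MTCE.33, while 3.09% of all tested genes did. The limma fit takes the lone GFP library to vary as the others do. In it 3 of 12 protein-coding genes had an aak(0) minus GFP difference above 0, against 1974 of 9649 tested genes. The median was -0.27 for the protein-coding members, against -0.79 over all genes. None passed in either direction, against 1.07% of all tested genes, and 0 of the 12 had an unadjusted p under 0.05.

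Levels of the protein-coding genes with HZL-1 in daf-2 were below the single GFP library. Each of the 3 daf-2 libraries lay below GFP for 12 of 12 protein-coding genes, a pattern shown by 57.6% of all tested genes. For both rRNA genes daf-2 replicate 1 lay above GFP. It had 31802 against 17493 FPKM for MTCE.7 and 10685 against 4983 FPKM for MTCE.33, while daf-2 replicates 2 and 3 lay below GFP. The limma difference, daf-2 minus GFP, had a median of -3.07 over the 12 genes, against -1.28 over all genes. The differences were -3.07 ± 0.75 for ctb-1, -3.05 ± 0.81 for ctc-1, -3.27 ± 0.84 for nduo-5 and -3.62 ± 1.39 for ctc-3, and the smallest of the 12 was that of nduo-4 at -1.39 ± 0.65 (± SE). For the rRNA genes they were 0.04 ± 1.05 for MTCE.7 and -0.64 ± 1.23 for MTCE.33. No gene of the 12 passed (adjusted limma p of 0.387 or more), against 1.07% of all tested genes called lower than GFP. At an unadjusted p under 0.05, 7 of 12 were lower, against 7.53% of all tested genes, but the GFP arm has no spread of its own and these p-values borrow that of the other groups. With no filter on low values limma called ctb-1, when 11.04% of all genes were called lower than GFP. HZL-1 daf-2 and GFP differ in both the tag and the labelled genotype, which cannot be told apart here, and both differences from GFP share this 1 library.

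Under the endogenous promoter the direction was not the same. With 1 library per genotype label there is no replicate check, and the counts compare these libraries. Reads of ctb-1 numbered 25476 in the library labelled aak(0) and 87816 in the one labelled daf-2, which after division by all gene reads gave a ratio of 0.702 (exact 95% interval 0.692 to 0.712, counting error only). Reads of ctc-1 numbered 58401 and 170939 in the same order, with a ratio of 0.826 (0.819 to 0.834). Those of ctc-3 numbered 30477 and 98072, with a ratio of 0.752 (0.742 to 0.761). The ratio was 0.677 for ndfl-4, 0.692 for nduo-6, 0.783 for nduo-3, 0.884 for ctc-2, 0.969 for nduo-4 and 0.971 for nduo-1. It was above 1 for 3 protein-coding genes, against 72.4% of 18987 genes with a mean of at least 1 CPM. These 3 were atp-6 at 1.21 (1.17 to 1.24), nduo-5 at 1.72 (1.66 to 1.78) and nduo-2 at 5.46 (4.90 to 6.10). The last rested on 1068 reads in the library labelled aak(0) and 473 in the one labelled daf-2, and nduo-2 made up 0.676% of mitochondrial messages in the first, against 0.0262% to 0.104% in the other 7 HZL-1 libraries. For the rRNAs the ratio was 0.753 for MTCE.7 and 1.63 for MTCE.33.

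The whole endogenous comparison depends on the total it is divided by. The gene argk-1 took 37.3% of gene reads in the library labelled aak(0), with 2 reads in the one labelled daf-2, and cytosolic rRNA took 26.1% in the first and 66.2% in the second. On log2(CPM + 1) the median over the 12 protein-coding genes was -0.23, against 1.92 over 18987 genes, and 0 of 12 were over 2-fold lower in the library labelled aak(0), against 15.1% of all genes. With all rRNA left out of the totals the median was -1.44, against 1.32 over all genes, and 9 of 12 genes were over 2-fold lower, against 29.9% of all genes. With argk-1 left out as well, an alternative added after seeing the data, the median was -0.37. Of the reads of protein-coding genes, mitochondrial messages made up 0.992% in the library labelled aak(0) and 2.84% in the one labelled daf-2. In the intestinal libraries these shares were 3.22%, 5.34% and 4.45% in aak(0), against 0.937%, 2.60% and 0.493% in daf-2. Reads that named no gene were 62.1% of all reads in the endogenous library labelled aak(0) and 29.6% in the one labelled daf-2, and their part in these ratios was not tested.

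**Figure D5:**
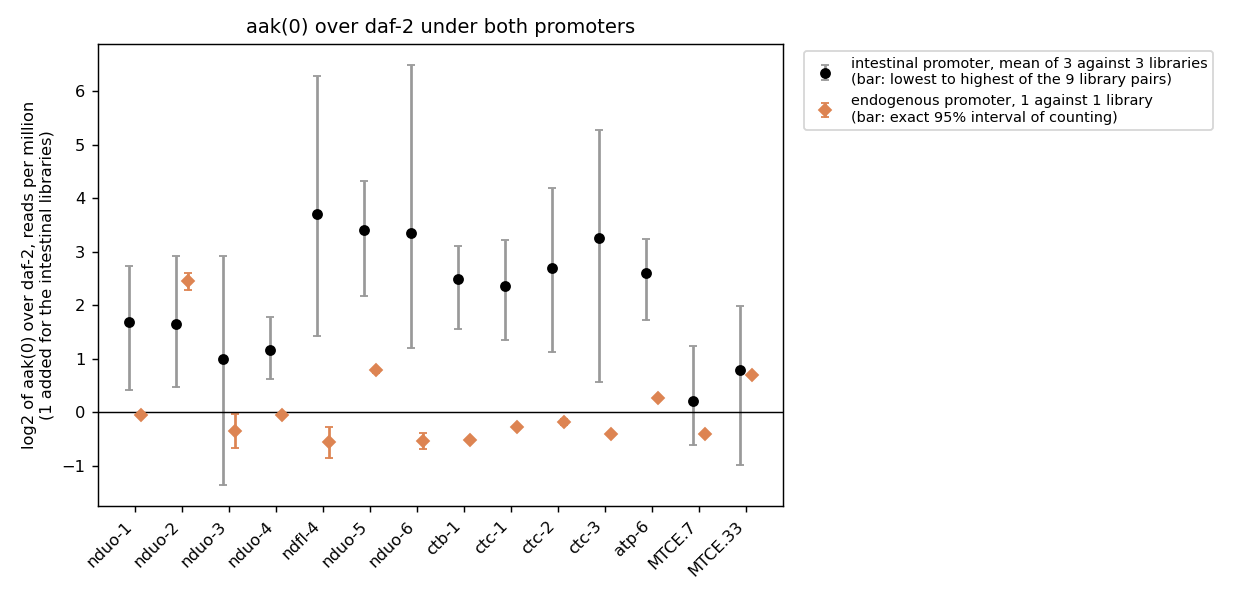
log2 of aak(0) over daf-2 in CPM for the 14 mitochondrial genes with values, for intestinal HZL-1 (circles, mean of 3 against 3 libraries, 1 added to each value, bars from the lowest to the highest library pair) and for the labelled endogenous pair (diamonds, exact 95% counting intervals). The diamonds lie below 0 for 9 protein-coding genes, while the bars of 11 of the 12 circles lie above 0.

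Nuclear genes of the same complexes were set beside the mitochondrial ones. Of 42 listed nuclear genes of complexes I to V and cytochrome c, all were tested, 0 passed the adjusted threshold in limma and 6 had an unadjusted p under 0.05, all of them higher in aak(0), where 4.09% of all tested genes were. Their log2 difference, aak(0) minus daf-2, was above 0 for 31, as for 70.3% of all tested genes, and had a median of 0.86, against 0.59 over all genes and 2.74 for the mitochondrial members. By list the median was 1.04 for 12 complex I genes, 1.60 for 4 of complex II, 1.09 for 9 of complex III with cytochrome c, 0.20 for 7 of complex IV and 0.57 for 10 of the ATP synthase. For complex I, nuo-4 and nduf-7 were the most abundant, with differences of 1.04 ± 0.51 and -0.35 ± 1.67. For the wholly nuclear complex II, sdhb-1, the iron-sulfur subunit, and mev-1, a cytochrome b subunit, gave 2.11 ± 0.87 and 2.63 ± 1.12. For complex III, isp-1, the Rieske iron-sulfur subunit, gave 2.31 ± 1.17, and cyc-2.1, a cytochrome c gene, gave -0.997 ± 1.588. For complex IV, cox-6B and cox-5A gave 0.79 ± 0.51 and -1.26 ± 1.40. The genes atp-2 and atp-1, for subunits of the catalytic head of the ATP synthase, gave 0.65 ± 0.45 and 1.50 ± 0.44 (± SE). The abundant atp-2 had 171, 96.6 and 102 FPKM in aak(0), against 59.4, 75.6 and 95.01 FPKM in daf-2, so its groups barely separated.

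Genes that maintain and express the mitochondrial genome showed no call either, and their counts can be read against the same 4.09% and 70.3% of all tested genes. Of 21 genes for its replication, transcription and translation, 19 were tested, 14 had a difference above 0 and 2 an unadjusted limma p under 0.05, with a median of 0.28. The most abundant, the elongation factor genes tufm-1 and gfm-1, gave 1.59 ± 0.61 and -0.19 ± 1.07. Of 71 mitochondrial ribosomal protein genes, 68 were tested, 46 lay above 0 and 2 had an unadjusted p under 0.05, with a median of 0.57. Of these, mrps-33 and mrps-11 gave 1.42 ± 1.41 and 0.87 ± 1.62. Of 10 mitochondrial chaperone and stress-response genes 8 were tested and all lay above 0, with a median of 1.29 and 3 at an unadjusted p under 0.05. The chaperone hsp-6, a mitochondrial Hsp70, had 290, 187 and 169 FPKM in aak(0), against 81.4, 113 and 109 FPKM in daf-2, while the GFP library had 215. Its difference was 1.05 ± 0.43, with an adjusted limma p of 0.717. The difference of hsp-60, for its partner chaperonin, was 1.45 ± 0.55 (± SE). Every list had 0 genes past the adjusted threshold in all 3 comparisons.

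Of 9635 nuclear genes ranked by likeness, the 5 closest to the mean log2(FPKM + 1) of the 12 protein-coding members over the 7 intestinal libraries were mes-3 (Pearson r = 0.990), aars-2 (0.987), acl-9 (0.986), Y54G11A.9 (0.984) and rpt-4 (0.981). The first encodes a Polycomb-type repressor subunit known from the germline, aars-2 an alanyl-tRNA synthetase and rpt-4 a proteasome ATPase. The closest, mes-3, had 7.18, 11.7 and 11.3 FPKM in aak(0), against 1.86, 4.12 and 0.63 FPKM in daf-2, while the GFP library had 15.7. The values of 1 library share its normalization and depth, and with 7 points such values are a description.

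The authors' deposited table gives its own log2 fold changes, which run as daf-2 over aak(0). In the authors' deposited table these were below 0 for 12 of the 12 protein-coding genes, with a median of -1.51, and their unshrunken values had a median of -2.15. In the authors' deposited table the unshrunken median over all 24419 genes with an adjusted p was -0.86, and 0 of them had an adjusted p under 0.05. The adjusted p in the authors' deposited table was 0.970 or 0.981 for each of the 12 genes, with standard errors from 3.23 to 4.03. For MTCE.7 and MTCE.33 the fold changes in the authors' deposited table were 0.75 and 1.023, and unshrunken 0.25 and -0.32.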

How the data were processed

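RNA in anti-GFP immunoprecipitates underwent poly(A) selection and paired-end sequencing, per the labels' protocols. The tools named per the submitters' processing notes are RSEM, STAR 2.7.1a, Trimmomatic 0.35 and DESeq2 1.30.1, with build WBcel235 and no settings. Deposited by the authors were FPKM for the 7 intestinal-promoter libraries, raw counts per gene for the 2 endogenous-promoter libraries, and a table of the 6 intestinal HZL-1 libraries. That table held a normalized signal per gene, which the authors had made from reads, with the authors' log2 fold changes, other standard errors, and p-values. Its signal was a whole multiple of 1 value per library for 100% of entries (tolerance 0.01), and those whole reads were recovered. The quasi-likelihood test of edgeR on them called 2 genes.

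limma 3.58.1 (R 4.3.3) was fitted to log2(FPKM + 1) of all 7 libraries with a variance trend, over 9649 genes whose mean reached 1 FPKM, with 4 residual degrees of freedom and an adjusted p threshold of 0.05. edgeR 4.0.16 and DESeq2 1.42.0 were alternatives. The pipeline was tested on simulated libraries of equal depth and spread, which these libraries do not have, so that test does not show its power here. The endogenous pair got ratios with exact 95% binomial intervals and no p-value. Rows of that table that name no gene stayed out of totals. Cytosolic rRNA includes 1 rRNA pseudogene row.

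All protein-coding and rRNA members were named. Of the nuclear mitochondrial lists, the 2 most abundant tested genes and any that passed were named, then the 5 genes most like the protein-coding members. The members and lists were chosen with earlier results of these data known. Groups were taken from the labels. Sequences were not used here.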

Additional observations from a re-analysis of the deposited data

Results flagged for a closer look

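The difference between aak(0) and daf-2 ran in opposite directions under the 2 promoters for 8 protein-coding genes of the mitochondrial genome. With intestinal HZL-1 each of the 3 aak(0) libraries lay above each of the 3 daf-2 libraries for these genes, as for 10.02% of 9649 tested genes. With the endogenous promoter the ratio of the library labelled aak(0) to the one labelled daf-2, over all gene reads, was below 1, at 0.677 for ndfl-4, 0.692 for nduo-6, 0.702 for ctb-1, 0.752 for ctc-3, 0.826 for ctc-1, 0.884 for ctc-2, 0.969 for nduo-4 and 0.971 for nduo-1. On that scale 72.4% of 18987 genes were higher in the endogenous library labelled aak(0), and the share of all genes with both patterns is not given here. The difference between the promoters was not tested, since the endogenous set has 1 library per label and those libraries do not match their labels in aak-2 and hzl-1 reads.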

How the results depend on the processing

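The direction of the aak(0) minus daf-2 difference was above 0 for the 11 protein-coding genes other than nduo-3 in each alternative that tested them; nduo-2 was not tested at a minimum mean of 5 FPKM. The number of called protein-coding genes was 0, except for 4 with edgeR and no filter, 1 with edgeR and library sizes without ribosomal RNA, and a range of 0 to 1 over fits that left out 1 replicate (1 without aak(0) replicate 1). Their median log2 difference, 2.74, was 1.71 with quantile normalization and 1.67 when the 3 libraries of fewest genes were left out, which leaves 1 daf-2 library assumed to vary like the others, and 2.15 to 3.07 without 1 replicate. Against GFP, the HZL-1 aak(0) median of -0.27 was -0.77 with quantile normalization and 0.0645 with median-of-ratios scaling. The HZL-1 daf-2 median of -3.07 was -2.07 with median-of-ratios scaling and -1.82 when those 3 libraries were left out, and 1 gene was called with no filter. The endogenous median of -0.23 was -0.14 with a pseudocount of 10, -1.44 without ribosomal RNA, -0.37 without argk-1 as well and -0.44 with median-of-ratios scaling. The ratio of mean shares of all 36 genes, aak(0) over daf-2, was 1.34, and it was 0.936 over protein-coding reads and 5.42 for protein-coding members alone. Single genes that turned were MTCE.7, at -0.28 with median-of-ratios scaling, and in edgeR at -0.13, -0.12 with no filter, -0.34 without ribosomal RNA and -0.087 with a replicate block, and -0.33 in DESeq2; MTCE.33, at -0.20 in edgeR without ribosomal RNA and -0.16 in DESeq2; and nduo-3, at -0.25, -0.24 and -0.80 without aak(0) replicate 2, aak(0) replicate 3 and daf-2 replicate 1, against 2.35 without aak(0) replicate 1. The cause was not tested. With the replicate number as a replicate block limma called 0 of the 12 genes, whose median was 2.74, and 0 of 9649 tested. At an unadjusted limma p under 0.05, 8 of the 12 were higher in aak(0), against 214 of 9649 tested genes. With this block edgeR called 0 of the 12 as well (median 2.26) and 0 of 9328 tested. The block thus changed no call among the 12. Same-numbered libraries deviated from their group means with correlations of -0.11, -0.05 and -0.10, and other-numbered ones with -0.10 to 0.12. These values show no pairing by number, but with 3 libraries per group they cannot exclude a shared batch.

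Uneven values limit nduo-2, nduo-3 and ndfl-4, for which an FPKM of 0 was listed in libraries with 3 to 34 reads. These zeros did not follow read number alone, and their cause was not tested. In aak(0) replicate 1, nduo-2 was listed at 1.80 FPKM with 16 reads and nduo-3 at 0 with 34. Low read numbers limit the tRNA genes, with 5 reads in all. No interval can be given for GFP, whose depth is unknown. Fewest genes above 0 FPKM were found in aak(0) replicate 1 and daf-2 replicates 1 and 3. The alternatives without them, without both replicate 1 libraries and without argk-1 were chosen after seeing the data.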
